A study of Homo sapiens with 12 samples.

Results

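The G1 cyclins and their kinases were examined as 8 genes: the D-type cyclins CCND1, CCND2 and CCND3, the E-type cyclins CCNE1 and CCNE2, and the kinases CDK4, CDK6 and CDK2. They were chosen by name from the 20033 protein-coding genes of GENCODE release 44 on chromosomes 1 to 22, X and Y, with no threshold on a measured value. Earlier results of these data were known when the genes were chosen. All deposited H2A.Z and acetylated H2A.Z (H2A.Zac) regions over each gene body and 10 kb to each side of it were taken, which gave 98 of 158028 regions, 32 of the 63442 H2A.Z regions and 66 of the 94586 H2A.Zac regions. The regions come from ChIP-seq in K562, a line from human chronic myeloid leukemia, whose endogenous EP400 carries a degradation tag (EP400-dTAG). A transgene in the AAVS1 locus supplied either wild-type (WT) EP400 or EP400 without the SANT and HD domains that hold TRRAP (ΔTRRAP), and both lines received 500 nM dTAGV-1 for 24 h, so the tagged endogenous protein was degraded in both. Each line is 1 clone, and differences between clones and between EP400 forms cannot be told apart. There are 12 libraries, with 2 replicates of input, H2A.Z and H2A.Zac in each line. The lists call a region lost when its signal is higher in WT, gained when it is higher in ΔTRRAP, and unchanged otherwise.

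Cyclins of the D type bind CDK4 and CDK6 early in G1 and the E type binds CDK2 later, and both kinds of complex phosphorylate the retinoblastoma protein, which frees E2F factors to switch on the genes of DNA replication. The D-type genes respond to growth signals and the E-type genes are themselves E2F targets. H2A.Z is a variant of histone H2A that sits in the nucleosomes around active and poised transcription start sites (TSSs) and at enhancers, and the TIP60 complex, of which EP400 and TRRAP are subunits, can both insert it and acetylate it.

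Every region carries a single value, the authors' log10 likelihood ratio between the merged WT and merged ΔTRRAP libraries, which is at least 3 in the lost and gained lists and under 3 in the unchanged lists. It weighs the evidence for a difference and is used to rank regions, and it is no fold change. The lists hold no value per replicate, so the values of single libraries cannot be shown, no spread between replicates and no test can be given, and the depth behind each region is unknown. The intervals given with shares are Wilson 95% confidence intervals and cover counting error only. Among markers of this line, KLF1 had unchanged regions of both marks within 1 kb of its TSS, TAL1 had a gained (ratio 7.28) and an unchanged H2A.Zac region and no H2A.Z, and the erythroid regulator GATA1 had none of either mark. The B-cell gene PAX5 had none, whereas the T-cell gene CD3E had unchanged regions of both marks.

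Over the 8 loci, H2A.Zac changed in both directions and H2A.Z was mostly unchanged. For H2A.Zac, 13 of 66 regions were lost (19.7%, 11.9 to 30.8%) against 25.9% of all H2A.Zac regions, and 18 were gained (27.3%, 18.0 to 39.0%) against 26.3% of all. For H2A.Z, 3 of 32 regions were lost (9.38%, 3.24 to 24.2%) against 19.8% of all H2A.Z regions, and 3 were gained (9.38%) against 14.1% of all. The background lies inside each of these intervals, so the loci as a set had no share of changed regions that counting error separates from the rest of the genome. Lost H2A.Zac covered 13.2 kb and gained H2A.Zac 11.9 kb of the loci, beside 37.3 kb unchanged. Lost H2A.Z covered 2.98 kb and gained H2A.Z 1.61 kb, beside 28.3 kb unchanged. Regions of different classes can overlap, so these lengths are not separate parts of the loci.

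Lost and gained H2A.Zac regions are described by their place and ratio, with no test between them. Of the 13 lost H2A.Zac regions, 2 reached into the TSS window, defined as the 2 kb centered on the canonical TSS, 7 lay outside it but within 10 kb of the TSS and 4 lay farther away. Of the 18 gained regions, 6 reached into the window, 4 lay within 10 kb and 8 lay farther away. With the TSS windows of neighboring genes included, 4 of the lost and 9 of the gained regions reached into a window, against 14.3% of all lost and 32.2% of all gained H2A.Zac regions. Gained regions thus lay at a TSS more often than lost ones over the genome too, and loci chosen around genes hold more TSSs than the genome at large. The lost regions had a median log10 likelihood ratio of 7.48 and reached 38.3, whereas the gained regions had a median of 4.98 and reached 13.0. Both medians were below those of all lost and all gained H2A.Zac regions, which were 8.27 and 6.87. A ratio of at least 10 was found for 6 lost H2A.Zac regions, at CCND1, CCND3, CCNE2 and CDK6, and for 2 gained ones, at the CCND2 and CDK2 loci. At the loci this was a share of 46.2% among lost regions and 11.1% among gained ones, against 38.8% of all 24482 lost and 26.3% of all 24844 gained H2A.Zac regions, so over the genome as well lost regions reached such ratios more often. The plot of likelihood ratios by gene shows this spread.

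**Figure D1:**
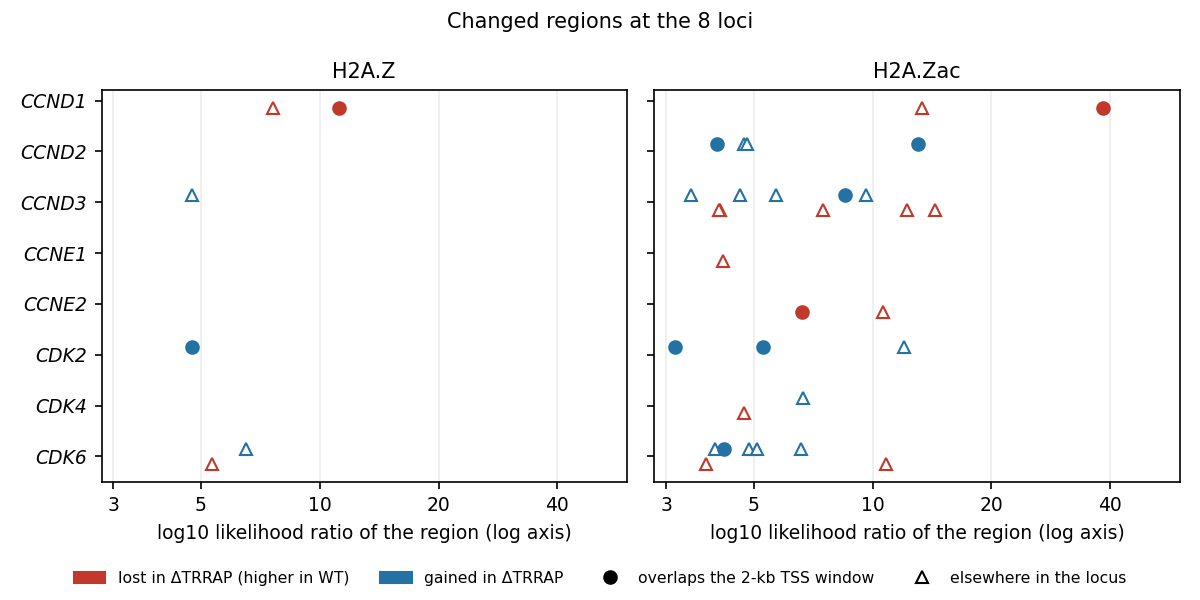
The log10 likelihood ratio of each lost and gained region at the 8 loci is plotted by gene, with H2A.Z and H2A.Zac marked separately and each point a region of the merged replicates. CCND1 holds the highest lost value (38.3) and CCND2 the highest gained value (13.0).

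The 2 marks mostly lay together. Of the 32 H2A.Z regions, 30 lay on H2A.Zac over at least 25% of their length (93.8%, 79.9 to 98.3%), against 82.8% of all H2A.Z regions, and the other two both lay in CCND3. In the reverse direction 43 of 66 H2A.Zac regions lay on H2A.Z (65.2%, 53.1 to 75.5%), against 60.5% of all. All 3 lost H2A.Z regions, at CCND1 and upstream of CDK6, lay on lost H2A.Zac. Of the 3 gained H2A.Z regions, 2 lay on gained H2A.Zac, far from the canonical TSS of CCND3 and CDK6. Both the lost and the gained H2A.Z region of CDK6 also lay partly on unchanged H2A.Zac. The other changed H2A.Zac regions lay on unchanged H2A.Z alone, 4 lost and 9 gained, or had less than 25% of their length on H2A.Z, 6 lost and 7 gained. A like measure over the genome found 55.0% of all lost and 57.1% of all gained H2A.Zac on H2A.Z, beside 7 of 13 and 11 of 18 at the loci. Unchanged H2A.Z, alone or beside another class, lay under 5 of the 13 lost and 10 of the 18 gained regions. These shares of 38.5% and 55.6% compare with 36.4% and 45.9% over the genome. No lost H2A.Zac region lay on gained H2A.Z and no gained one on lost H2A.Z. How often such opposite classes meet over the genome was not counted, so this is no result about the loci. Parts of a peak can be listed in different classes, and 36 of the 66 H2A.Zac regions shared at least 1 base with an H2A.Zac region of another class, including 16 of the 31 changed regions with an unchanged one, shares of 54.5% and 51.6% against 49.3% and 46.7% over the genome. For H2A.Z this held for 4 of 32 regions, and 2 of the 6 changed regions, the far gained sites of CCND3 and CDK6, shared bases with an unchanged one, against 27.3% and 40.3% over the genome.

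At the canonical TSS, 7 of the 8 genes had a region of each mark in the 2-kb window, against 62.2% (H2A.Z) and 64.0% (H2A.Zac) of all protein-coding genes. The gene without any was CDK4. H2A.Zac was lost there at 2 of the 7 genes, CCND1 and CCNE2 (28.6%), against 26.0% of all genes with an H2A.Zac region at the TSS. H2A.Zac was gained at 4 genes, CCND2, CCND3, CDK2 and CDK6 (57.1%), against 57.3% of all, and CCNE1 had unchanged H2A.Zac only. H2A.Z was lost at CCND1 alone (14.3%), against 10.5% of all genes with an H2A.Z region at the TSS, and gained at CDK2 alone (14.3%), against 22.3% of all. These shares were near the background or rest on 1 or 2 genes, and are no result about the 8 genes as a set. How much of the window had changed varied from gene to gene, as the plot of the covered window shows.

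**Figure D2:**
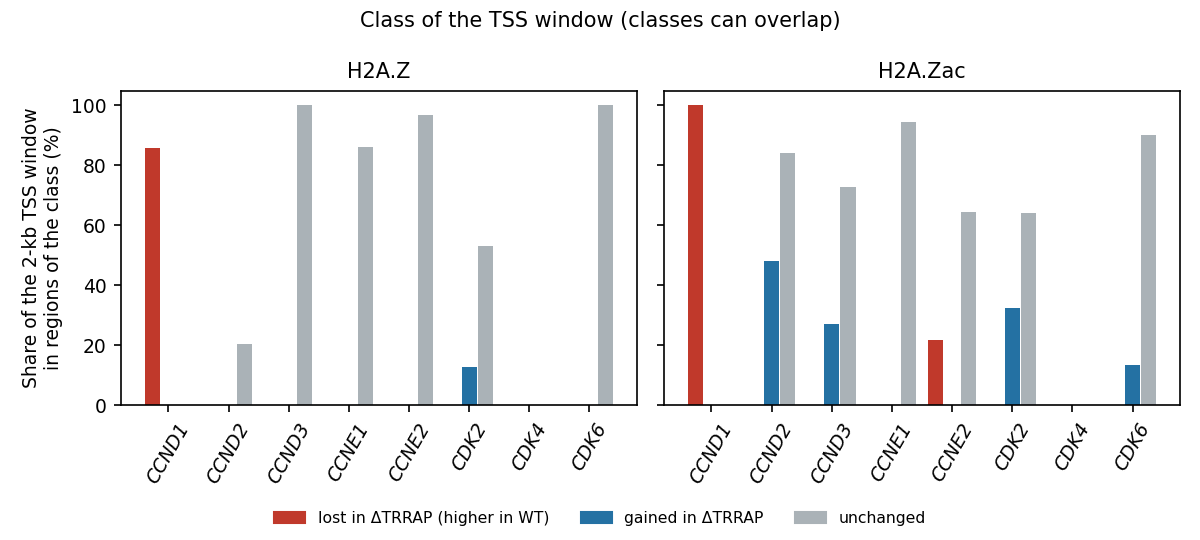
Bars give the percent of the 2-kb TSS window of each gene covered by lost, gained and unchanged regions, for H2A.Z and H2A.Zac, from 0 to 100%; classes can overlap. CCND1 is covered by lost regions only (85.7% and 100%) and CDK4 has no bar.

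The promoters of the genes whose TSS regions were compared are shown for the 4 of the 8 genes that matched the RefSeq promoter sequences (GRCh38.p14). They are printed because they range from CDK4, with no listed region, to CCND3 and CDK6, with H2A.Z across the whole window. At CCNE1, H2A.Z covered 86.3% of the window. Part of the printed CCNE1 bases lies in a gap between H2A.Z regions, which end at 29811725 and resume at 29811898. Each is given 5′ to 3′ on the strand of the gene, from 250 bases upstream of the start. The capitals mark the motifs searched on both strands, which were the GC box GGGCGG, the CCAAT box, the E-box CACGTG, the E2F site TTTNGCGC, the CRE core ACGTCA, the GATA site AGATAA and the AP-1 site TGANTCA. In the printed bases no match overlapped another.
CCND3 chr6:41941809-41942058: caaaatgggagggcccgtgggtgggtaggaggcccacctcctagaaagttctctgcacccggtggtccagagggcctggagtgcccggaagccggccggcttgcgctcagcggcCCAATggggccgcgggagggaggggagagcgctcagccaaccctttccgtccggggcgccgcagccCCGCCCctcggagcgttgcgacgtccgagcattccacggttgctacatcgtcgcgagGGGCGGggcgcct
CCNE1 chr19:29811741-29811990: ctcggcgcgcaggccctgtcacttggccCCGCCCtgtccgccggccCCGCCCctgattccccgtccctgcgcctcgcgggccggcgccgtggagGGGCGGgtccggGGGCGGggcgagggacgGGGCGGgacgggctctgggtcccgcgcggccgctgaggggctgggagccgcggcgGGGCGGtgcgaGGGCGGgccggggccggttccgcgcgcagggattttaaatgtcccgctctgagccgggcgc
CDK4 chr12:57752448-57752560: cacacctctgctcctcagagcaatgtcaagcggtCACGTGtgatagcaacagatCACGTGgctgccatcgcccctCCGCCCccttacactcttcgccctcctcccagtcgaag
CDK6 chr7:92836574-92836823: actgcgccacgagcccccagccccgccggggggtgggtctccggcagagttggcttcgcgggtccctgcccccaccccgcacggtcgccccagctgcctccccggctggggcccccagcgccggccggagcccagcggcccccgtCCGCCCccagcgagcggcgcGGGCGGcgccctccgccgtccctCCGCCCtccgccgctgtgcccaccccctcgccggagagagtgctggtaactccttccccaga

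CCND3, CDK4 and CDK6 lie on the minus strand and CCNE1 on the plus strand, and the CDK4 stretch stops at position -138 because annotated exons begin there. GC boxes were found 7 times at CCNE1, 3 times each at CDK4 and CDK6 and 2 times at CCND3, and 42.6% of the 35116 RefSeq promoters held at least 1 in the same 250 bases. CCND3 held 1 CCAAT box, found in 32.0% of promoters. CDK4 held 3 E-boxes, 2 of them in the printed bases, and an E-box was found in 6.34% of promoters. No E2F site of these letters was found in the 4 windows, and 1.51% of all promoters held it. The GC content was 81.2% at CCNE1 and 80.0% at CDK6, at percentiles 97.7 and 96.7 of all promoters, 71.2% at CCND3 (percentile 81.9) and 65.6% at CDK4 (percentile 68.6).

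CCND1 (ENSG00000110092, 5 exons, chr11:69641156-69654474, plus strand) encodes cyclin D1, which carries growth factor signals to CDK4 and CDK6. Its 33.3-kb locus held 5 regions, 4 of them lost and none gained. Lost H2A.Zac covered 100% of the TSS window and lost H2A.Z 85.7%, and no region of another class entered it. Genes with lost H2A.Zac at the TSS numbered 3336, and the lost regions covered a median of 24.6% of their windows and the whole window of only 37 (1.11%). For lost H2A.Z the median was 21.4% over 1309 genes, and 15 genes reached at least 85%. The log10 likelihood ratio of 38.3 for H2A.Zac (3386 bp, from upstream of the TSS through exon 2 into intron 2) ranked 38 among the highest lost values of the 3336 genes, the top 1.14%. The ratio of 11.2 for H2A.Z (1980 bp) ranked 71 of 1309, the top 5.42%. The authors had already shown CCND1 as an example of loss of both marks in these data. Its high ranks and its fully lost window restate that example and are no independent result.

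Loss in both marks at the TSS was found at 8.87% of the 11912 protein-coding genes with a region of each mark there, and loss in both with no H2A.Zac of another class at 2.64%, or 315 genes. A second pair of lost regions lay upstream of CCND1, with H2A.Zac at 69638289 to 69639738 (ratio 13.3) and H2A.Z inside it at 69638489 to 69639009 (ratio 7.61). The unchanged H2A.Z region of the locus, 510 bp over exon 2 (ratio 0.462), lay wholly under the lost H2A.Zac region, so the downstream edge lost acetylation where H2A.Z was listed as unchanged. In the 2.5 Mb to each side, 85 of 156 changed H2A.Zac regions were gained (54.5%, 46.7 to 62.1%) and 27 of 62 changed H2A.Z regions (43.5%, 31.9 to 55.9%), so the surroundings held both directions. Over the genome, 24844 of 49326 changed H2A.Zac and 8965 of 21557 changed H2A.Z regions were gained. Among the 160 other genes with lost regions of both marks and no other class at the TSS, the nearest to CCND1 by its pair of ratios were SLC16A9 (10.4 for H2A.Z and 39.6 for H2A.Zac) and SIGLEC11 (10.9 and 35.4).

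CCND2 (ENSG00000118971, 5 exons, chr12:4269771-4305353, plus strand, canonical TSS at 4273762) encodes cyclin D2 and showed the opposite direction, with 4 gained H2A.Zac regions, 6 unchanged and none lost. Its H2A.Z regions, 3 in number and all unchanged, lay upstream, and the last ended 0.593 kb before the TSS. The highest gained ratio of the 8 loci, 13.0, was that of a 1524-bp H2A.Zac region from intron 1 into exon 2 (4274597 to 4276120), and another gained region of 796 bp (4273611 to 4274406, ratio 4.03) spanned the TSS. Neither lay on a listed H2A.Z region. The other gained regions, of 689 bp (ratio 4.74) and 653 bp (ratio 4.81), lay upstream, the first of them over an alternative start 3.99 kb before the canonical TSS. Gained H2A.Zac covered 48.1% of the TSS window and unchanged H2A.Zac 84.2%, so the classes overlapped, and gained regions covered a median of 37.2% over the 7342 genes that had any. The ratio of 13.0 ranked 506 of 7342 (top 6.89%, median 6.42). The starts of the noncoding genes CCND2-AS1 and ENSG00000290063 lie 2.49 and 1.99 kb downstream, and a protein-coding read-through gene, ENSG00000285901, shares the TSS, so the regions cannot be assigned to a single gene.

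CCND3 (ENSG00000112576, chr6:41934934-42050357, minus strand, canonical TSS at 41941808) encodes cyclin D3, the D-type cyclin best known in blood cells, and its 135.0-kb locus held the most regions, 33 of the 98. Of its 22 H2A.Zac regions 5 were lost and 5 gained. An unchanged H2A.Z region of 2434 bp (ratio 0.925) covered the whole TSS window, which held 72.8% unchanged and 27.2% gained H2A.Zac. The gained region there was 545 bp long and began 0.135 kb upstream of the TSS (41941943 to 41942487, ratio 8.52, rank 1789 of 7342). The lost regions lay farther off. At 41947519 to 41948697, 5.71 kb upstream, and at 41991095 to 41992609, 49.3 kb upstream, lost H2A.Zac had ratios of 14.3 and 12.2, and at 28.3 kb a further region had a ratio of 7.48, all without H2A.Z. These positions lie within the annotated span of CCND3, which has 23 annotated transcripts, some starting far upstream. Those far starts, near the TSS of TAF8, a TFIID subunit, had unchanged H2A.Z with unchanged and lost H2A.Zac (759 bp, ratio 4.07) within 1 kb. Unchanged H2A.Zac of 1664 bp (42047967 to 42049630, ratio 0.399) covered all of them but the farthest, at 42050357. Gained H2A.Zac (353 bp, ratio 5.68) lay within 1 kb of that farthest start only. The remaining changed H2A.Zac regions outside the site described next had ratios between 3.46 and 4.61.

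The region of CCND3 gained in both marks lay 74.4 kb upstream of the canonical TSS, where 15 of the 23 annotated CCND3 transcripts span it and no CCND3 exon meets it, with gained H2A.Z at 42016597 to 42017306 (710 bp, ratio 4.75) inside gained H2A.Zac at 42016176 to 42017809 (1634 bp, ratio 9.63). Unchanged regions overlapped both, with 389 bp of unchanged H2A.Z (42016770 to 42017158, ratio 1.42) wholly inside the gained H2A.Z and 256 bp shared by unchanged and gained H2A.Zac.

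**Figure D3:**
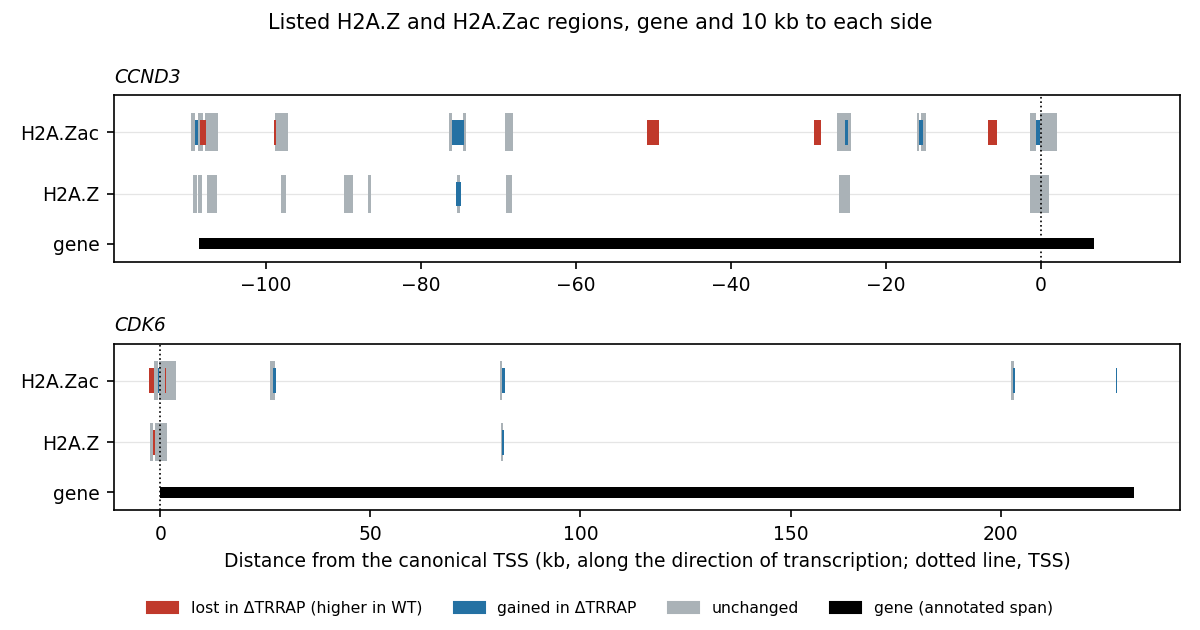
Regions at the long loci are drawn by class and mark against the distance from the canonical TSS in kb along the direction of transcription. Gained H2A.Z and H2A.Zac lie together 74.4 kb upstream in CCND3 and in intron 3 of CDK6.

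CCNE1 (ENSG00000105173, 12 exons, chr19:29811991-29824312, plus strand) encodes cyclin E1, the main partner of CDK2 at entry into S phase, and had no changed region in its TSS window. Unchanged H2A.Zac of 2728 bp (ratio 0.728) spanned the TSS and covered 94.4% of the window, and unchanged H2A.Z covered 86.3%, with a 991-bp region (ratio 0.568) over the TSS. The only changed region of the locus was a lost H2A.Zac region of 333 bp, 6.92 kb upstream (29804744 to 29805076, ratio 4.19), without H2A.Z. In the 2.5 Mb to each side, 6 of 27 changed H2A.Z regions were gained (22.2%, 10.6 to 40.8%), against 8965 of 21557 over the genome. The surroundings of CCNE1 thus leaned to lost H2A.Z.

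CCNE2 (ENSG00000175305, 12 exons, chr8:94879770-94896678, minus strand, canonical TSS at 94895201) encodes the second E-type cyclin and lost H2A.Zac with no listed change of H2A.Z. A single unchanged H2A.Z region of 3440 bp (ratio 0.478) covered 96.9% of its TSS window. Lost H2A.Zac of 572 bp (94895766 to 94896337, ratio 6.61) lay wholly on it, 0.565 kb upstream of the TSS, and covered 21.8% of the window, beside 64.4% unchanged. That ratio ranked 2011 of 3336 (top 60.3%), below the median of 7.6. The higher ratio of the locus, 10.6, belonged to a lost H2A.Zac region of 1052 bp that was 9.15 kb upstream and had no H2A.Z. Cyclins E1 and E2 thus both had lost H2A.Zac upstream, as had CCND1, CCND3 and CDK6. Of the 2 E-type genes only CCNE2 had lost H2A.Zac reaching into the TSS window, and whether they differ was not tested.

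CDK2 (ENSG00000123374, 7 exons, chr12:55966781-55972789, plus strand, canonical TSS at 55966830) encodes the kinase of the E-type cyclins and had short gained regions of both marks at its start. Gained H2A.Z of 256 bp (55967301 to 55967556, ratio 4.76) lay in intron 1, 0.471 kb from the TSS, and covered 12.8% of the window, beside 53.0% unchanged. Gained H2A.Zac of 325 bp (55966882 to 55967206, ratio 5.29) began 0.052 kb downstream of the TSS, and a further 323 bp (ratio 3.16) lay 0.248 kb upstream, toward the TSS of PMEL, a pigment cell gene 0.788 kb away. Both lay wholly on unchanged H2A.Z, the gained H2A.Z lay on unchanged H2A.Zac, and the 323-bp piece lay inside an unchanged H2A.Zac region of 878 bp. Together they covered 32.4% of the window, beside 64.1% unchanged. A noncoding gene, ENSG00000258554, starts 0.644 kb downstream of the TSS. The ratios at the CDK2 start were low for their class, with the H2A.Z ratio at rank 1658 of 2777 (top 59.7%, median 5.11) and the H2A.Zac ratio at rank 5193 of 7342 (top 70.7%). Gain of both marks at the TSS was found at 18.5% of the 11912 genes with both. The highest ratio of the CDK2 locus, 12.0, belonged to gained H2A.Zac of 876 bp at the TSS of the neighboring gene RAB5B, an endosomal GTPase, 7.2 kb downstream, over unchanged H2A.Z.

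CDK4 (ENSG00000135446, 8 exons, chr12:57747727-57756013, minus strand, canonical TSS at 57752310) encodes a kinase of the D-type cyclins and had no region of either mark in its TSS window. The nearest was unchanged H2A.Zac of 2011 bp (57754315 to 57756325, ratio 0.28), 2.0 kb upstream at the TSS of MARCHF9, a ubiquitin ligase, with unchanged H2A.Z of 1742 bp (ratio 0.255) inside it. Both also cover an alternative CDK4 start 3.7 kb upstream of the canonical one. The other regions lay downstream, around the TSS of TSPAN31, a tetraspanin gene, where 376 bp of lost H2A.Zac (57743904 to 57744279, ratio 4.71) and 1016 bp of gained H2A.Zac (57744739 to 57745754, ratio 6.66) each overlapped an end of unchanged H2A.Z of 723 bp (ratio 0.511). The TSS of AGAP2, a GTPase-activating protein, lies 13.6 kb downstream. No region in a list does not show that a mark is absent, since only regions that passed the authors' peak filters are listed.

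**Figure D4:**
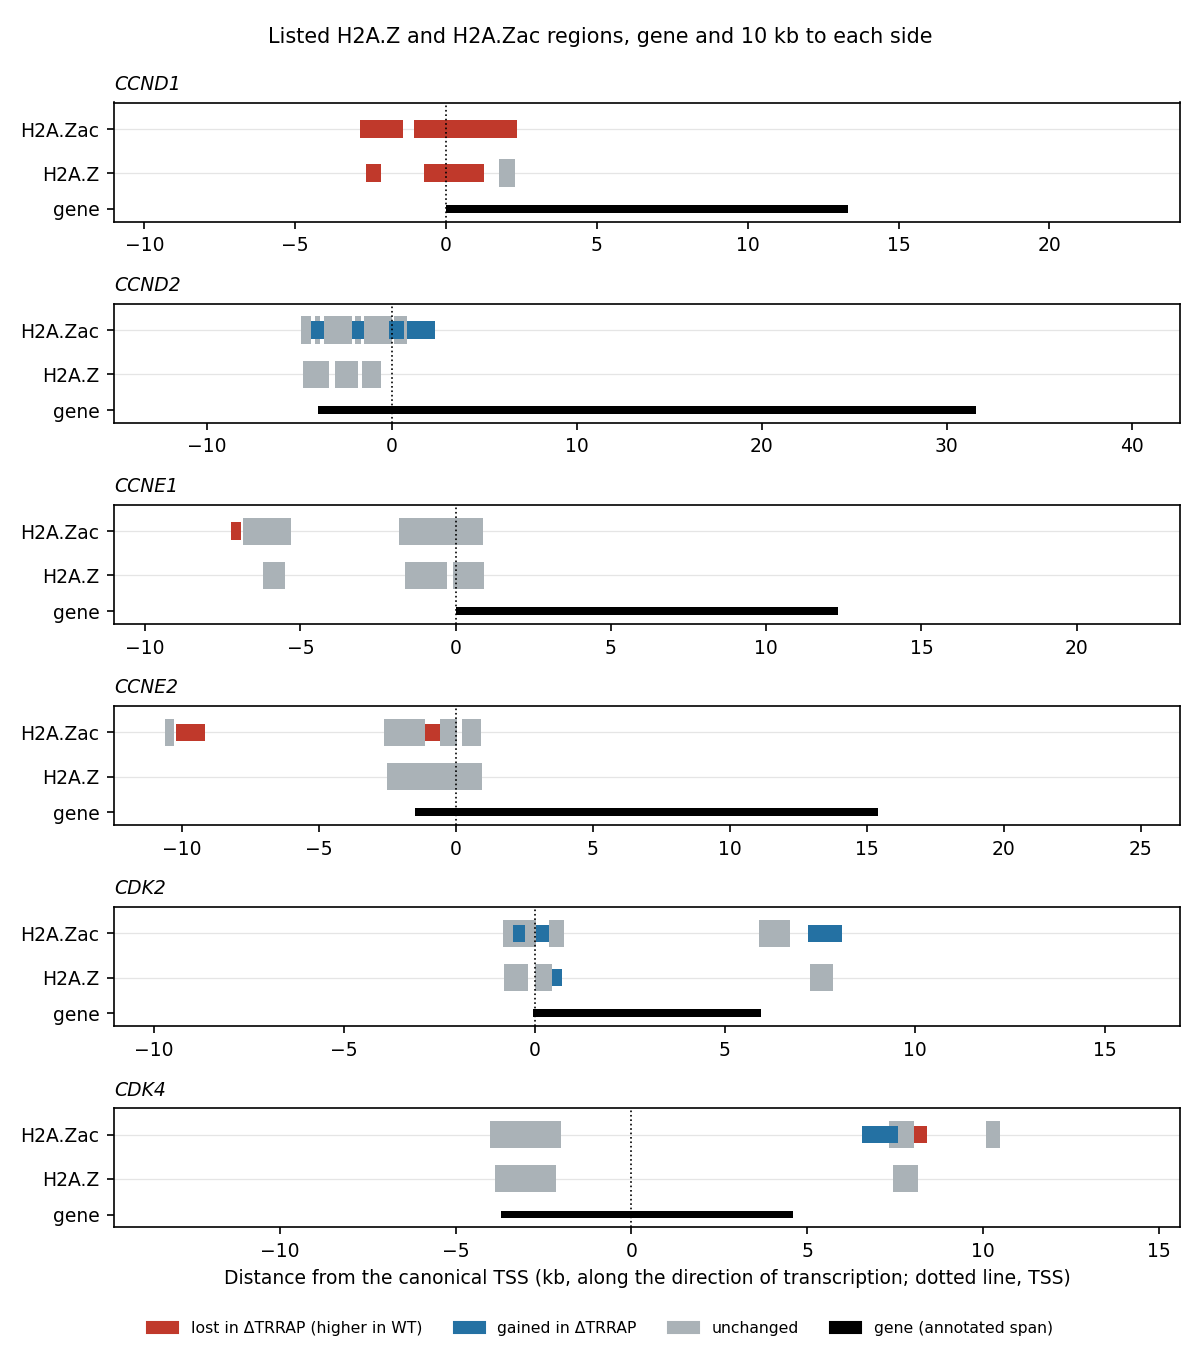
Regions at the short loci are drawn by class and mark against the distance from the canonical TSS in kb along the direction of transcription. Lost regions of both marks cover the CCND1 start, gained H2A.Zac lies at CCND2, and the CDK4 start is empty.

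CDK6 (ENSG00000105810, 8 exons, chr7:92604921-92836573, minus strand) encodes the other D-type cyclin kinase, prominent in blood cells, and is the longest of the 8 genes at 232.0 kb. Its TSS window was covered fully by unchanged H2A.Z (2942 bp, ratio 0.761) and to 90.0% by unchanged H2A.Zac, mainly a region over the TSS (4107 bp, ratio 0.963). A gained H2A.Zac region of 266 bp (92836901 to 92837166, ratio 4.19) lay 0.328 kb upstream and covered 13.3%, at rank 6629 of 7342. The noncoding gene CDK6-AS1 starts 0.206 kb from the CDK6 TSS, within these regions. Just beyond the window both marks were lost, with H2A.Z of 484 bp at 92837919 to 92838402 (ratio 5.32, 1.35 kb upstream) and H2A.Zac of 1073 bp at 92838115 to 92839187 (ratio 10.8). Unchanged H2A.Zac at 92837104 to 92838083 also reached into the lost H2A.Z region. Unchanged H2A.Z of 696 bp (92838410 to 92839105, ratio 1.34) lay wholly under that lost H2A.Zac region, so acetylation was also lost where H2A.Z was listed as unchanged. On the other side of the start, in intron 1, 320 bp of H2A.Zac were lost 1.11 kb from the TSS (ratio 3.79), wholly within the unchanged 4107-bp region. Farther into the gene body, past intron 1, the changed regions were all gained. They lay in intron 2 (694 bp, ratio 3.99), intron 3 (608 bp, ratio 6.57), intron 5 (496 bp, ratio 5.09) and exon 8 (291 bp, ratio 4.87), between 26.8 and 227 kb from the TSS. Unchanged H2A.Zac shared 591 of the 694 bp in intron 2 and 332 of the 496 bp in intron 5.

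The intron 3 site, 81.2 kb from the TSS, was gained in both marks, with H2A.Z at 92754690 to 92755334 (645 bp, ratio 6.51) and H2A.Zac at 92754591 to 92755198 (608 bp). An unchanged H2A.Z region (92754967 to 92755464, ratio 1.53) shared 368 of the 645 bp, and an unchanged H2A.Zac region shared 29 bp of the gained one, so the site was only partly distinct from unchanged signal. The central 200 bases of the H2A.Z region are shown because gained regions of both marks cover them, although 145 of the 200 also lie in the unchanged H2A.Z region. They are given on the plus strand of hg38, with no capitals because none of the 7 motifs was found in them, and they overlap no annotated exon.
CDK6 chr7:92754912-92755111: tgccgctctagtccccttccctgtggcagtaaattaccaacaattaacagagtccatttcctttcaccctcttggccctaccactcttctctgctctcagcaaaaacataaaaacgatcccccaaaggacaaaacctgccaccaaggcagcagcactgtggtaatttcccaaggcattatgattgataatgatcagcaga

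Their GC content was 46.5% and their CpG ratio 0.208, against 80.0% and 0.785 in the CDK6 promoter bases, where the CpG ratio is the observed CpG count over that expected from the base composition. Of all 8965 gained H2A.Z regions, 21.0% held a CCAAT box, 15.4% a GC box, 13.4% a GATA site, 6.78% an AP-1 site, 2.68% a CRE core, 2.49% an E-box and 0.625% an E2F site in their central 200 bases. In the same order, the shares over all 63442 H2A.Z regions were 19.1%, 20.4%, 8.78%, 5.75%, 2.78%, 3.64% and 0.563%.

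For the other members with changed H2A.Zac at the TSS, the genes with the same classes of both marks and the nearest pair of ratios were AMPD3 and HIVEP1 for CCND2, ARL6IP5 and DAZAP2 for CCND3, TEP1 and MAPKAP1 for CDK6, PRSS21 and ZIC5 for CCNE2, and TLE4 and PGP for CDK2. The measure was the summed difference of the log10 likelihood ratios of both marks. This likeness rests on 1 comparison per mark. The 2.5 Mb around the loci held both directions for both marks, with gained shares of changed H2A.Zac between that of CCNE1 (22 of 50 regions) and that of CCNE2 (54 of 88, 61.4%). For changed H2A.Z the gained shares ran more widely, from CCNE1 (6 of 27, 22.2%) to CCNE2 (18 of 28, 64.3%).

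The 32 other genes of the G1/S pathway were counted in the same way. For H2A.Zac, 28 had a region at the TSS, of which 10 had a lost region (35.7%, against 26.0% of all such genes) and 15 a gained one (53.6%, against 57.3%). RBL2, CDC25A and AMBRA1 had both. For H2A.Z, 28 had a region, with 3 lost (10.7%, against 10.5%) and 9 gained (32.1%, against 22.3%). Nearly all changed windows also held unchanged regions, which were found at 28 of 28 genes for H2A.Z and at 27 of 28 for H2A.Zac, the exception being SKP1. CDKN2A and CDKN2B, the INK4 inhibitors of CDK4 and CDK6, and the germline cyclin CCNA1 had no region of either mark at the TSS.

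Among the retinoblastoma family, RB1 gained H2A.Zac (ratio 7.76), RBL1 lost it (11.5) and RBL2 had both (14.1 gained and 3.86 lost) with gained H2A.Z (4.73). Of the E2F factors and their partners, which bind DNA as dimers, E2F2 (5.11), E2F8 (4.38) and TFDP1 (10.9) lost H2A.Zac and E2F3 gained it (3.76), with gained H2A.Z at E2F3 (4.65). E2F5, E2F6, E2F7 and TFDP2 had unchanged H2A.Zac only, with unchanged H2A.Z at the E2F genes and no H2A.Z region at TFDP2. E2F1 and E2F4 had lost H2A.Z (5.19 and 4.85) beside unchanged H2A.Z (1.48 and 1.06), E2F1 with unchanged H2A.Zac and E2F4 with none. RBL1 and E2F1 lie in surroundings of almost pure loss of H2A.Z and mostly of loss of H2A.Zac. In the 2.5 Mb to each side, 78 of 79 changed H2A.Z regions were lost around RBL1 and 92 of 93 around E2F1, and 129 of 148 and 145 of 176 changed H2A.Zac regions. Over the genome, 12592 of 21557 changed H2A.Z and 24482 of 49326 changed H2A.Zac regions were lost. The lists hold no copy number. A difference in copy number between the 2 clones and a change of the marks thus cannot be told apart, at these genes or elsewhere.

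The inhibitors of the CIP/KIP family, which bind cyclin-CDK complexes, were split. CDKN1A, which encodes p21, and CDKN1B, which encodes p27, gained H2A.Zac (5.02 and 8.85), the latter with gained H2A.Z (3.52), and CDKN1C lost H2A.Zac (12.6). Of the INK4 genes, CDKN2C gained H2A.Zac (13.7), and CDKN2D lost both marks (5.09 for H2A.Zac and 5.52 for H2A.Z). The subunits of the CDK-activating kinase had gained H2A.Zac at CDK7 (8.2), CCNH (7.56) and MNAT1 (4.08), the class found at 57.3% of all genes with H2A.Zac at the TSS. CCNH (5.94) and MNAT1 (6.91) also had gained H2A.Z, whereas CDK7 had unchanged H2A.Z only (0.825).

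Among regulators of cyclin turnover, AMBRA1, the ubiquitin ligase adaptor of the D-type cyclins, had the highest gained H2A.Zac ratio of the list (19.4) and also a lost region (8.98). FBXW7, the adaptor for cyclin E, gained H2A.Zac (5.71), as did CUL1 (4.27), SKP1 (8.37) and CKS1B (9.99). SKP2, which with CKS1B recognizes p27, lost H2A.Zac (7.27) and gained H2A.Z (6.07), and SKP1 gained H2A.Z (5.43). CDC25A, the phosphatase that activates CDK2, had gained (4.34) and lost (6.94) H2A.Zac with gained H2A.Z (3.73). CCNA2, the S-phase cyclin that follows cyclin E on CDK2, had the highest gained H2A.Z ratio of the list (12.9) with unchanged H2A.Zac. The plot of the pathway shows these values by gene and mark.

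**Figure D5:**
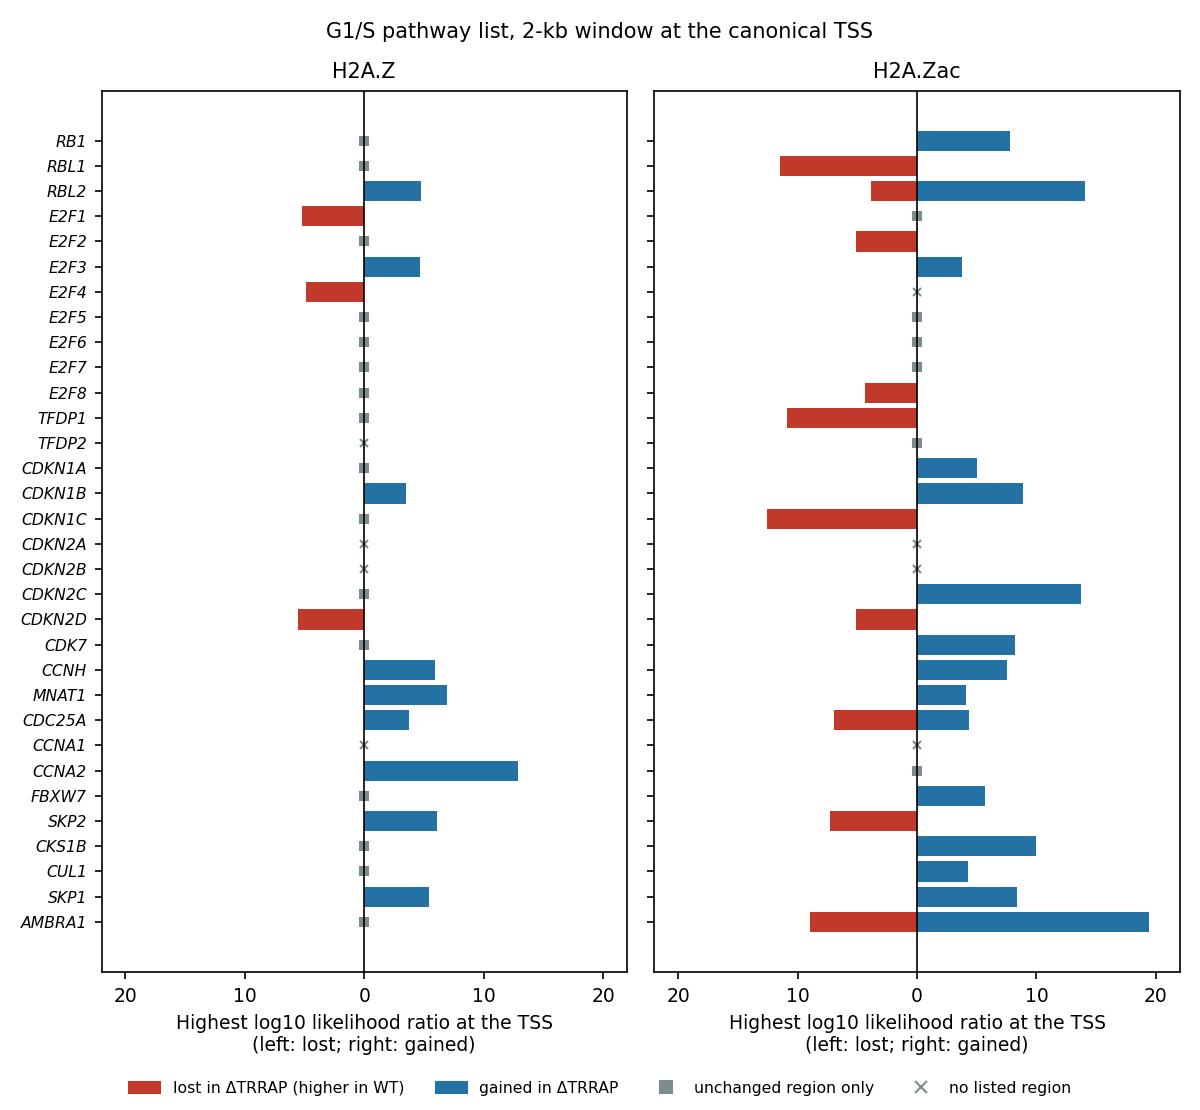
For each gene of the G1/S pathway list, the highest log10 likelihood ratio of lost and of gained regions at the TSS is plotted for H2A.Z and H2A.Zac. AMBRA1 has the highest gained H2A.Zac value (19.4) and CCNA2 the highest gained H2A.Z value (12.9).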

How the data were processed

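H2A.Z and H2A.Zac ChIP-seq was carried out in 12 libraries from K562 lines with WT or ΔTRRAP EP400. Per the submitters' processing notes and the methods, the authors aligned reads to hg38 with Bowtie2 2.4.5, compared merged replicates with MACS2 2.2.7.1 bdgdiff, given the effective depths, and kept regions with at least 25% of their length inside peaks that passed an IDR of 0.05. bedtools 2.30.0 and deepTools 3.5.1 are also named there. The authors deposited 6 lists with a score per region, the log10 likelihood ratio, split at 3. The first condition named in the lists was taken as WT.

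Regions were joined to GENCODE release 44, later than the release the authors used, at the gene body plus 10 kb and at the 2-kb window on the canonical TSS. Overlap needed 25% of a region's length. Every chromosome name of the lists was in the hg38 sequence, and no region ran past an end. The members and the lists of genes were chosen with earlier results of these data known. The genes named are the 8 members, the 32 pathway genes by class with values for those changed at the TSS, and protein-coding genes whose TSS lies in a member locus. Noncoding genes that start near the canonical TSS of CCND2, CDK2 and CDK6 are also named. Per member with changed H2A.Zac at the TSS, the 2 genes of the same classes with the closest ratios were added. The K562 markers were added later.

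Since the lists merge the replicates, no test between the lines was made, no spread is known and depth is unknown here. Alternatives were flanks, likelihood ratio cutoffs, windows, all annotated TSSs and overlaps. In further alternatives, regions within 1 kb were merged, CDK6 was left out, or regions near another gene's TSS were left out. Covered lengths were checked against bedtools 2.31.1, and the counting of genes by class was tested on simulated data. Python 3.11.15, numpy 2.4.6, pandas 2.3.3, statsmodels 0.14.6 and matplotlib 3.10.9 were used. Gene expression, inputs, signal tracks and other EP400 mutants were not analysed here. A further marker gene and a further intronic sequence are not reported here.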

Additional observations from a re-analysis of the deposited data

How the results depend on the processing

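Of 66 alternative values, 47 were taken as close to the reported ones and 19 moved, all counts. Close was taken broadly and included lost H2A.Z at the loci going from 3 to 2 with 2-kb flanks. It also included lost H2A.Zac at the TSS of the 8 genes going from 2 to 3 with a 4-kb window. Gained H2A.Zac at the loci went from 18 to 13 without CDK6, also taken as close. When regions needed a ratio of 5 or more, gained H2A.Z at the loci fell from 3 to 1, lost H2A.Zac from 13 to 8 and gained H2A.Zac from 18 to 9, and gained H2A.Z at the TSS from 1 to 0 among the 8 genes and from 9 to 5 in the pathway list. At 10, the loci held 1 lost and 0 gained H2A.Z regions, and 6 lost and 2 gained H2A.Zac regions, an order also found over all H2A.Zac regions, where 9504 lost and 6529 gained regions reached this cutoff. The genes with a change at the TSS were then 0 with gained H2A.Z, 1 with lost H2A.Zac (CCND1) and 1 with gained H2A.Zac (CCND2), and in the pathway list 0 with lost H2A.Z, 1 with gained H2A.Z, 3 with lost H2A.Zac and 3 with gained H2A.Zac. With 25 kb to each side of the genes, 5 H2A.Z regions were lost. With a 4-kb TSS window, 2 genes had lost H2A.Z, CDK6 being added. With any annotated TSS, 4 genes had lost H2A.Zac, CCND3 and CDK6 being added. The share of H2A.Z on H2A.Zac stayed between 92.0 and 95.7%. No paired analysis was possible because the lists come from merged replicates and hold no value per replicate, and for the same reason no replicate could be left out. Since depth is unknown, no precision can be attached to any region.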
